A study of Mus musculus with 20 samples.

Results

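The 9 genes Ms4a4a, Ms4a4b, Ms4a4c, Ms4a6b, Ms4a6c, Ms4a6d, Ms4a7, Ms4a8a and Ms4a14 lie in 1 cluster on mouse chromosome 19. They were found by symbol in tables that list 51456 genes per library, and all 9 symbols were found. The list was chosen from measured levels of these same macrophage libraries, so the group differences of the members are a description and carry no test. The libraries hold RNA of macrophages grown from the bone marrow of C57BL/6 mice aged 4 to 5 months, and marrow of every group was kept for 6 days in 50 ng/ml CSF-1 (M-CSF), the growth factor that turns marrow cells into macrophages. The WT group (10 libraries, Rep1 to Rep10) is wild type at Trem2. The KO group (5 libraries) is labelled as a 5 bp knockout of Trem2, and the R47H group (5 libraries) as a Trem2 R47H knock-in, a substitution linked to Alzheimer's disease risk in people. The protocol text speaks of littermate controls for either mutant, yet no label ties a wild-type library to a line, and the genotype label does not say whether R47H libraries carry 1 or both mutant alleles. Wild-type libraries are therefore used together and also as the sets Rep1 to Rep5 and Rep6 to Rep10.

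Ms4a genes code for small proteins that cross the membrane several times and sit beside immune receptors. The family takes in the B cell antigen CD20 (Ms4a1) and the beta chain of the IgE receptor of mast cells and basophils (Ms4a2). In macrophages, MS4A4A marks alternatively activated cells and associates with the beta-glucan receptor dectin-1. Human variants near MS4A4A and MS4A6A are associated with the amount of soluble TREM2 in cerebrospinal fluid and with Alzheimer's disease risk. TREM2 itself is a surface receptor for lipids on microglia and other macrophages, and its signal runs through the adaptor Tyrobp (DAP12) to the kinase Syk.

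Promoters of 5 members are printed here because these genes either had the largest differences between R47H and WT (Ms4a4a, Ms4a7) or moved together most closely from library to library (Ms4a4c, Ms4a6c, Ms4a6b). Each runs 5′ to 3′ on the strand of its gene, from 250 bases before to 50 bases after a RefSeq start site on GRCm38.p6. Capitals mark matches, on either strand, to GGAAGT, the core of ETS family motifs, or to GAAANNGAA, a short form of the interferon-stimulated response element. Of the 9 members, 8 had a promoter in the RefSeq table, and Ms4a6d did not. Ms4a7 had 2 start sites, of which the upstream one is shown.
Ms4a4a, chr19:11375238-11375537, plus strand: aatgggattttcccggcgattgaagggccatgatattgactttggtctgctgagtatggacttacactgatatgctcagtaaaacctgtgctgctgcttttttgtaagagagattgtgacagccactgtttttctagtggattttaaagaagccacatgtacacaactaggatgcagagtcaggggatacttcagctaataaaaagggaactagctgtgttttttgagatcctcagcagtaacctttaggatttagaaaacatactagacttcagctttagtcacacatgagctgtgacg
Ms4a7, chr19:11336097-11336396, minus strand: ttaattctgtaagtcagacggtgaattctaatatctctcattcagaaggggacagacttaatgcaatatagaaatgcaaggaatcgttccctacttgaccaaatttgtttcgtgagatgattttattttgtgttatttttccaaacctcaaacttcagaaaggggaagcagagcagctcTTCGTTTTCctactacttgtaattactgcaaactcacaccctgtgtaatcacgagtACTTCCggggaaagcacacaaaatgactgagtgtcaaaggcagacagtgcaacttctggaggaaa
Ms4a4c, chr19:11407411-11407710, plus strand: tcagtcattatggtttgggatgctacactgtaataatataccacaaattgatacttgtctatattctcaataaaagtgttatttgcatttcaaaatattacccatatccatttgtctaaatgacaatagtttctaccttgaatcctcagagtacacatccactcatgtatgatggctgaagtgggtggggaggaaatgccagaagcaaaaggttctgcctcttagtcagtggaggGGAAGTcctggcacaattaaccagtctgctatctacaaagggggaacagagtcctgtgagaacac
Ms4a6c, chr19:11469118-11469417, plus strand: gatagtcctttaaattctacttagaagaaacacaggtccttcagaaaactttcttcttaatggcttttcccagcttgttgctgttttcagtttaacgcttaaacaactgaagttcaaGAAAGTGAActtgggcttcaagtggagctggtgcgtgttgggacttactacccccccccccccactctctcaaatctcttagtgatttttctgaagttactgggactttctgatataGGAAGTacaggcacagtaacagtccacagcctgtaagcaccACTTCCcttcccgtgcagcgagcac
Ms4a6b, chr19:11518309-11518608, plus strand: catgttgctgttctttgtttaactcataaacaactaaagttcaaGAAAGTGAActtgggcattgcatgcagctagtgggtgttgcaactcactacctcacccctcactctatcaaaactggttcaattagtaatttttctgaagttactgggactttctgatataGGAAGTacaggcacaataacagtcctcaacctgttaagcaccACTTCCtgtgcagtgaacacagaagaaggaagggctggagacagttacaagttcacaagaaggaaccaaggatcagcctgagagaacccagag

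GGAAGT stood in promoters of 5 of the 8 members (Ms4a7, Ms4a4c, Ms4a4b, Ms4a6c and Ms4a6b) and in 23.8% of all 32851 promoters of the same length. A member is counted if any of its windows holds the letters, while the shares over all promoters count single windows. In Ms4a7, Ms4a4c, Ms4a4b and Ms4a6c a match began 15 to 19 bases before the start site, at -15, -15, -19 and -16. GAAANNGAA stood in 3 of the 8 (Ms4a7, Ms4a6c and Ms4a6b) and in 8.56% of all promoters. Ms4a6c and Ms4a6b carried the same letters, GAAAGTGAA, at -133 and -206. Local alignment of the windows of Ms4a6c and Ms4a6b gave 193 identical bases of 216 aligned (89.4%), and that of Ms4a4c and Ms4a4b gave 159 of 177 (89.8%). These are pairs of close paralogs, so a motif that both hold is not an independent match. The letters CATGTG (an E-box) were found in the Ms4a4a window at -97 and 34 and in a window of Ms4a7, and they occur in 14.2% of all promoters. TGANTCA (the AP-1 motif) was found in 4 of the 8 members and 7.81% of promoters, in Ms4a7 only in the window not shown. TTGNNNAA (a short C/EBP form) was found in 5 of the 8 and 36.7%. GAGGAAGT (a long PU.1 form), TTCNNNGAA (STAT) and CACGTG were in none of the 8 and in 3.20%, 8.30% and 7.15% of all promoters, which says only that these letters are not in these windows.

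Levels are given in FPKQ, the deposited unit, which is treated here as fragments per kilobase of transcript on a scale common to the libraries. For a 2 kb gene, 1 FPKQ was worth 46.96 to 71.77 fragments, depending on the library. Trem2 stood at 690.5 to 900.7 FPKQ in WT, at 23.7 to 24.8 in KO and at 496.1 to 794.3 in R47H. KO lay below every other library. R47H overlapped WT but was lower on average, at 652.4 against 806.0 FPKQ. R47H Rep1, Rep4 and Rep5 (672.7, 496.1 and 527.3) lay below every WT library, while Rep2 and Rep3 were within the WT range. Of the 9 members, 7 averaged 1 FPKQ or more across the 20 libraries and were tested, and Ms4a4b and Ms4a8a were not. Each of the 7 also passed that minimum in WT alone.

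In wild-type macrophages Ms4a7 was the most abundant member at 284 ± 23.2 FPKQ (SD, n = 10), the 97.3 percentile of the 10843 tested genes. Ms4a6c (115 ± 20.1, SD, n = 10), Ms4a6d (81.6 ± 8.53, SD, n = 10) and Ms4a6b (53.2 ± 10.7, SD, n = 10) followed in that order within each of the 10 libraries. Ms4a6c and Ms4a6d overlapped in their ranges over libraries, and Ms4a6d and Ms4a6b did not. Ms4a4a (25.1 ± 7.37, SD, n = 10), Ms4a14 (21.4 ± 3.09, SD, n = 10) and Ms4a4c (13.9 ± 3.61, SD, n = 10) came next. Their ranges overlapped, and Ms4a4a was above Ms4a14 in 7 of 10 libraries. Summed over the 9 members, the family stood at 595 ± 67.1 FPKQ in WT (SD, n = 10), 1225 ± 53.9 in KO and 880 ± 94.9 in R47H (SD, n = 5 each). The lowest KO sum, 1142, was above the highest R47H sum, 975.7, and the lowest R47H sum, 747.6, was above the highest WT sum, 699.6. Ms4a7 made up 48.0% of the sum in WT, 43.3% in KO and 52.0% in R47H, while the part of Ms4a4a was 4.17%, 14.6% and 7.55%. These are levels in bulk RNA, in which fewer cells of a type and less RNA per cell cannot be told apart.

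**Figure D1:**
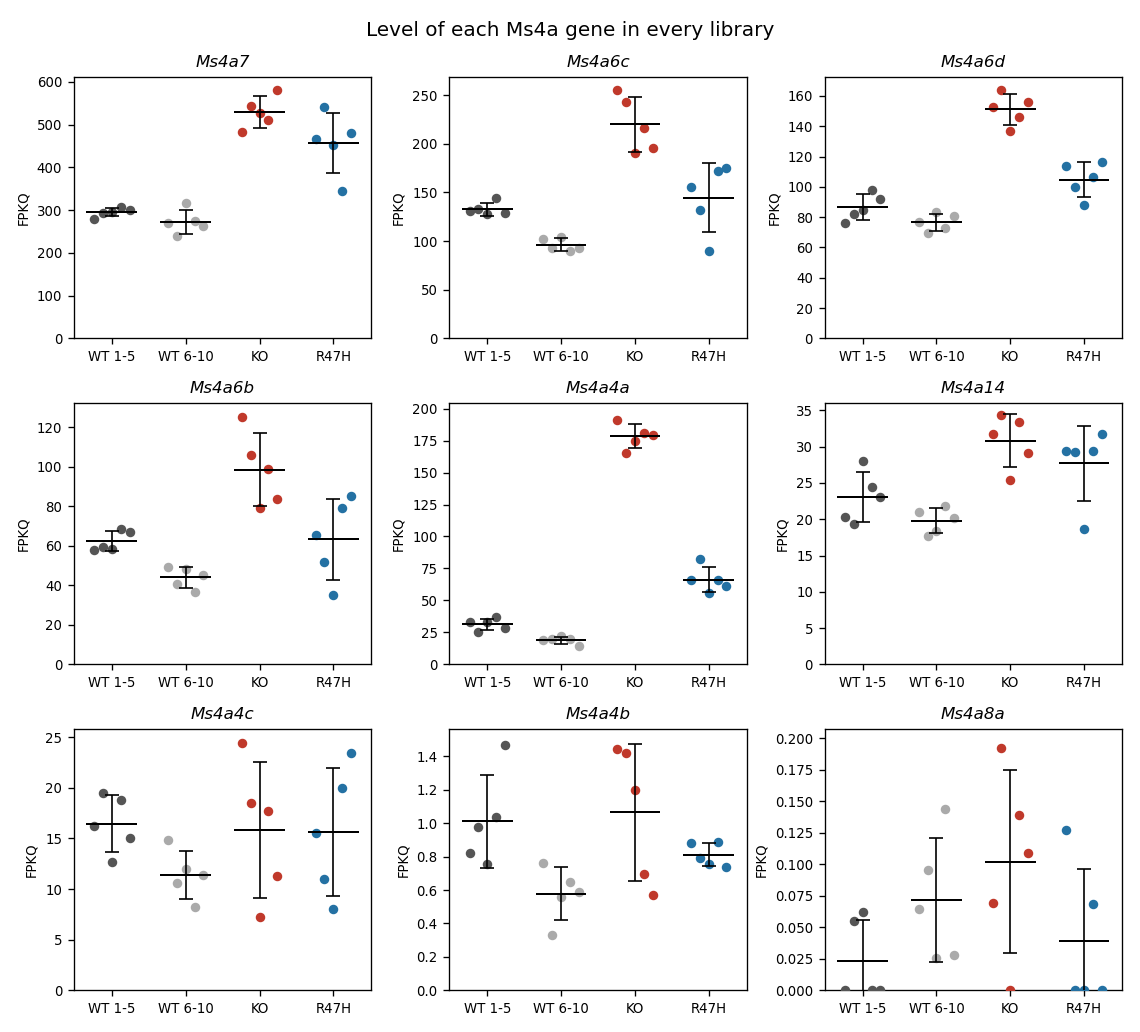
Level of each of the 9 Ms4a genes in FPKQ (linear axes from 0, a scale of its own in each panel) in every library of WT Rep1 to Rep5, WT Rep6 to Rep10, KO and R47H. Points are libraries, long bars are means and error bars are 1 SD; in Ms4a4a the 3 genotypes do not overlap, while in Ms4a4c they do.

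Ms4a4a (chr19:11375523-11392790, plus strand, GRCm38), the gene whose product associates with dectin-1, had the widest difference. In WT it ranged from 14.6 to 36.6 FPKQ with a median of 23.6. In KO it stood at 191.4, 165.3, 174.8, 180.6 and 179.7 FPKQ (Rep1 to Rep5), and in R47H at 65.6, 82.7, 55.6, 66.2 and 61.6. All KO libraries were above all R47H libraries, and all R47H libraries were above all WT libraries. The KO mean was 7.10 times the WT mean, with a difference of 2.83 in log2(FPKQ + 1) (SE 0.16, 95% interval 2.50 to 3.16). The R47H mean was 2.64 times that of WT, with a log2 difference of 1.41 (SE 0.16, 95% interval 1.07 to 1.74). R47H against KO gave -1.42 (SE 0.18). Ms4a4a rose in rank as well: it was below Ms4a6b in all 10 WT libraries, above Ms4a6d and Ms4a6b in all 5 KO libraries, and interleaved with Ms4a6b in R47H, where it was the higher of the pair in 2 of 5 libraries.

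The wild-type libraries were not uniform for this gene. Ms4a4a was 31.3 FPKQ on average in WT Rep1 to Rep5 (24.9 to 36.6) and 18.996 in WT Rep6 to Rep10 (14.6 to 22.2), a ratio of 1.65 with no overlap. Against WT Rep1 to Rep5 the log2 difference was 2.48 for KO and 1.06 for R47H, and against WT Rep6 to Rep10 it was 3.18 and 1.75. KO and R47H lay above both sets in every library. What sets the wild-type sets apart is not in the labels.

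The neighbouring paralog Ms4a4c (chr19:11404770-11427246, plus strand) showed no such order. Its WT levels ran from 8.25 to 19.5 FPKQ with a median of 13.8. The KO libraries stood at 24.4, 18.5, 7.21, 17.7 and 11.3 FPKQ, and the R47H libraries at 15.53, 10.995, 7.985, 20.01 and 23.44. KO and R47H each spanned the wild-type range, with Rep3 the lowest library of both groups. The log2 difference was 0.11 in KO (SE 0.25, 95% interval -0.41 to 0.62) and 0.10 in R47H (SE 0.25, 95% interval -0.41 to 0.61). Its sign depended on the controls, at -0.14 and -0.15 against WT Rep1 to Rep5 and 0.36 and 0.35 against WT Rep6 to Rep10. Ms4a4b (chr19:11443553-11467055, plus strand), known from T cells, was at 0.795 FPKQ on average in WT, 1.07 in KO and 0.812 in R47H, below the minimum for a test, and the groups overlapped. Of the 75-base stretches of Ms4a4c transcripts, 3.78% are also found in Ms4a4b, and how reads were divided between the pair is not known here.

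The KO means of the Ms4a6 genes were 1.85 to 1.92 times those of WT, and the R47H means 1.19 to 1.28 times. Ms4a6d (chr19:11586604-11604849, minus strand), whose product is known to pair with the complement receptor Vsig4, ranged from 69.4 to 97.7 FPKQ in WT with a median of 81.2. In KO it stood at 152.4, 164.3, 136.9, 146.4 and 156.2 FPKQ, and in R47H at 113.8, 99.7, 87.7, 106.3 and 116.5. KO was above every other library, and in R47H all but Rep3 were above all WT libraries. The log2 difference was 0.89 in KO (SE 0.07, 95% interval 0.73 to 1.04), 0.36 in R47H (SE 0.07, 95% interval 0.20 to 0.51) and -0.53 for R47H against KO (SE 0.09).

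Ms4a6c (chr19:11469366-11482192, plus strand) ranged from 89.8 to 144.2 FPKQ in WT with a median of 116. The KO libraries stood at 254.8, 242.5, 190.5, 215.9 and 195.7 FPKQ, all above WT. The R47H libraries stood at 155.9, 131.5, 89.8, 171.4 and 174.8 FPKQ, so 3 of 5 were above all WT libraries and Rep3 was level with the lowest. The log2 difference was 0.94 in KO (SE 0.14) and 0.31 in R47H (SE 0.14, 95% interval 0.02 to 0.61), and -0.63 for R47H against KO (SE 0.16). The R47H difference was 0.08 against WT Rep1 to Rep5 and 0.54 against WT Rep6 to Rep10, and 0.47 without R47H Rep3.

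Ms4a6b (chr19:11516512-11531256, plus strand) ranged from 36.6 to 68.6 FPKQ in WT with a median of 53.8. The KO libraries stood at 125.1, 106.1, 79.1, 98.8 and 83.7 FPKQ, again all above WT. The R47H libraries stood at 65.7, 51.8, 35.0, 79.0 and 85.4 FPKQ, from below the lowest to above the highest WT library. The log2 difference was 0.88 in KO (SE 0.18) and 0.21 in R47H (SE 0.18, 95% interval -0.16 to 0.57), and -0.68 for R47H against KO (SE 0.20). The R47H difference was -0.04 against WT Rep1 to Rep5 and 0.45 against WT Rep6 to Rep10, so its sign rests on the controls. Of the 75-base stretches of Ms4a6b, 0.632% are also found in Ms4a6c or Ms4a6d, and of those of Ms4a6c, 2.88% in Ms4a6b or Prdm11.

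Ms4a6b and Ms4a6c also differed between the wild-type sets, being 1.41 and 1.38 times higher in Rep1 to Rep5 without overlap. With Ms4a4a, 3 of the 7 tested members showed this, against 5.25% of all tested genes. For Ms4a4c, Ms4a6d, Ms4a7 and Ms4a14 the ratios were 1.44, 1.13, 1.08 and 1.16, and the sets overlapped.

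Ms4a7 (chr19:11321039-11336146, minus strand), a marker of macrophages of tissue borders and of monocyte origin, ranged from 239.9 to 316.8 FPKQ in WT with a median of 286.9. In KO it stood at 483.8, 542.9, 527.0, 511.4 and 582.0 FPKQ, and in R47H at 465.5, 540.4, 452.2, 345.6 and 481.4. Every KO and R47H library was above every WT library. R47H and KO overlapped, with R47H Rep4 the lowest of the 10 mutant libraries. The log2 difference was 0.90 in KO (SE 0.08, 95% interval 0.73 to 1.06) and 0.67 in R47H (SE 0.08, 95% interval 0.51 to 0.84). The difference of R47H from KO was -0.22 (SE 0.09, 95% interval -0.42 to -0.03).

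Ms4a14 (chr19:11301249-11314454, minus strand) ranged from 17.7 to 28.0 FPKQ in WT with a median of 20.7. In KO it stood at 31.8, 34.4, 25.4, 33.4 and 29.2 FPKQ, and in R47H at 29.5, 29.3, 18.6, 29.3 and 31.7. All libraries but Rep3 of each mutant group were above all WT libraries. The log2 difference was 0.51 in KO (SE 0.11, 95% interval 0.28 to 0.74), 0.35 in R47H (SE 0.11, 95% interval 0.12 to 0.57) and -0.16 for R47H against KO (SE 0.13). Without R47H Rep3 the R47H difference was 0.48. Ms4a8a (chr19:11067471-11081102, minus strand), described in alternatively activated macrophages, was at most 0.19 FPKQ in any library, or 6.51 fragments, and its differences were not readable at this depth.

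Across all genes, limma called 28.2% of the 10843 tested genes higher and 23.7% lower in KO than in WT (Benjamini-Hochberg adjusted p under 0.05). Of the 7 tested members 6 were called higher (all but Ms4a4c) and none lower, and 5 of the 7 did not overlap between KO and WT, against 15.4% of tested genes that were higher without overlap. In R47H, 13.4% of tested genes were called higher and 7.83% lower. Of the members 4 were called higher (Ms4a4a, Ms4a7, Ms4a6d and Ms4a14), and 2 of the 7 did not overlap with WT, against 3.77% of tested genes. For R47H against KO, 22.8% of tested genes were called higher and 18.0% lower. There 4 members were called lower (Ms4a4a, Ms4a6b, Ms4a6c and Ms4a6d), and 3 of the 7 lay below KO without overlap, against 10.8%. Because the members were selected on these contrasts, nothing is read from the counts. The median log2 difference of the 7 was 0.89 in KO (0.01 over all tested genes), 0.35 in R47H (0.04) and -0.53 for R47H against KO (0.03). KO and R47H are compared with the same WT libraries.

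The KO calls of the 6 members held in each of the 33 other settings tried. Those of R47H held for Ms4a4a and Ms4a7 in all 33, for Ms4a6d in all but the rescaling of libraries to equal sums, and for Ms4a14 in 23, failing with WT Rep1 to Rep5 as controls, with equal sums and without any 1 of R47H Rep1, Rep2, Rep4 and Rep5 among others. Without R47H Rep3, 5 members were called, Ms4a6c being added. Ms4a7 in R47H against KO was called in 7 of the 33 settings and not otherwise. Some of the 33 settings leave a difference as it is and change only its spread or the adjustment. With equal sums the share of higher among all called genes moved from 54.4% to 36.1% in KO and from 63.1% to 20.7% in R47H, and the median of all genes in R47H moved from 0.04 to -0.07. Scaling by median ratios and quantile normalization put the R47H share at 46.0% and 48.6%. The directions of the tested members other than Ms4a4c were kept under those scalings.

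**Figure D2:**
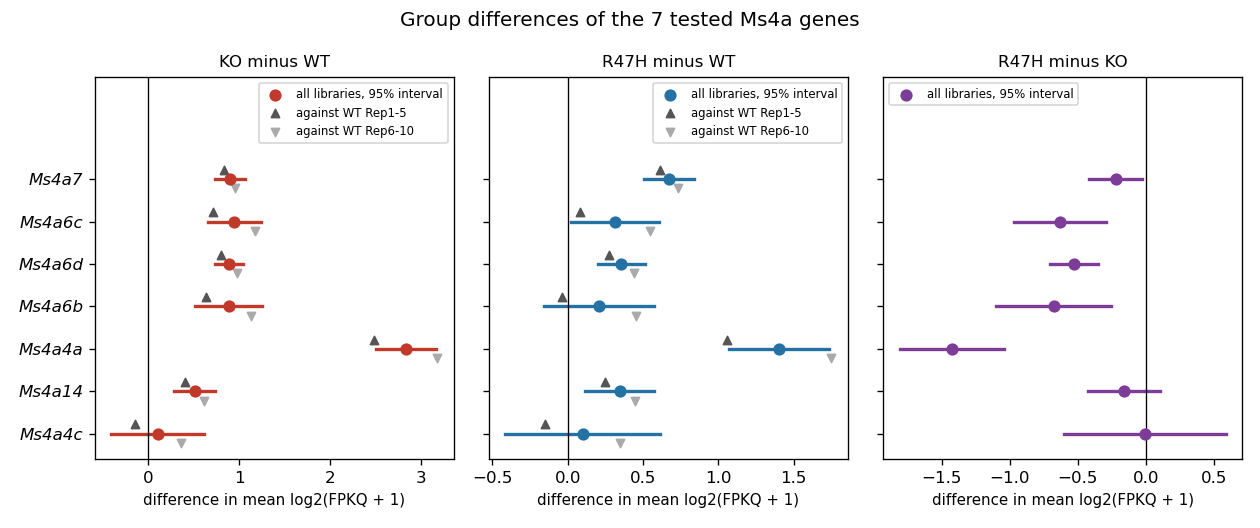
Difference in mean log2(FPKQ + 1) of the 7 tested Ms4a genes, for KO minus WT, R47H minus WT and R47H minus KO; circles and bars are the difference and its 95% interval over all 20 libraries, and triangles are differences against 1 wild-type set. Ms4a4a lies farthest from 0 in each panel, at 2.83, 1.41 and -1.42, and Ms4a4c lies near 0.

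The other Ms4a genes in the files, 10 in all, were close to silent. For 6 of them every library was at 0, and Ms4a1, Ms4a2, Ms4a3 and Ms4a4d reached at most 0.25 FPKQ in any library, so none was tested. Ms4a1, Ms4a2 and Ms4a3 mark B cells, mast cells and basophils, and granulocyte-monocyte progenitors. Genes around the cluster were read as a comparison that the choice of members did not use. The Ms4a genes span 678.6 kb (chr19:10962293-11640851, GRCm38), and 17 of the 51 genes in the files that lie within 500 kb on either side were tested.

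In KO 6 of the 17 flanking genes (35.3%) rose and 1 fell, beside 28.2% higher and 23.7% lower among all tested genes. With equal sums 5 rose and 6 fell, so the balance of directions depends on the scaling. Tmem132a rose from 17.4 ± 1.71 FPKQ in WT (SD, n = 10) to 34.1 ± 2.47 in KO (SD, n = 5; log2 difference 0.93, adjusted p 5.49e-10, limma). Slc15a3, a peptide and histidine transporter of lysosomes, rose from 124.7 ± 9.20 to 210.2 ± 29.3 (0.74, adjusted p 2.68e-08, limma). Patl1, an mRNA decapping factor, rose by 0.42 and Cyb561a3, a lysosomal iron reductase, by 0.48 (adjusted p 8.68e-06 and 4.27e-05). Mrpl16, a mitochondrial ribosomal protein, and Osbp, an oxysterol-binding protein, rose by 0.23 and 0.19 (adjusted p 0.0104 and 0.00132). Mrpl16 was not called with WT Rep6 to Rep10 as controls, nor Osbp with equal sums. Stx3, a membrane fusion protein of the syntaxin family, fell by 0.28 (adjusted p 8.52e-05).

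In R47H 3 of the 17 (17.65%) rose and none fell, beside 13.4% higher and 7.83% lower among all tested genes. With equal sums 3 rose and 2 fell. The 3 that rose were Tmem132a (24.1 ± 2.96 FPKQ, SD, n = 5, log2 difference 0.44, adjusted p 0.000130), Slc15a3 (0.36, adjusted p 0.00116) and Cyb561a3 (0.39, adjusted p 0.00159). Tmem132a, Slc15a3 and Patl1 were lower in R47H than in KO (adjusted p 0.000117, 0.00150 and 0.000500) and Stx3 was higher (0.00292). Tmem109, Prpf19 and Ccdc86, the tested genes nearest the Ms4a span on its lower-coordinate side, were at -0.08, -0.01 and -0.14 in KO and did not pass the test. On the higher-coordinate side the nearest were Mrpl16, Stx3 and Patl1, at 0.23, -0.28 and 0.42 in KO, and all of these were called. The median log2 difference of the 17 was -0.01 in KO and 0.05 in R47H. The non-coding RNA gene AW112010, chosen here after its values were seen because it was the 1 other tested gene inside the Ms4a span, was at 8.57 ± 1.60 FPKQ in WT (SD, n = 10), 18.8 ± 5.37 in KO and 15.2 ± 3.64 in R47H (SD, n = 5 each). It rose by 1.01 in KO (adjusted p 1.18e-05, limma) and by 0.75 in R47H (adjusted p 0.00124, limma).

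**Figure D3:**
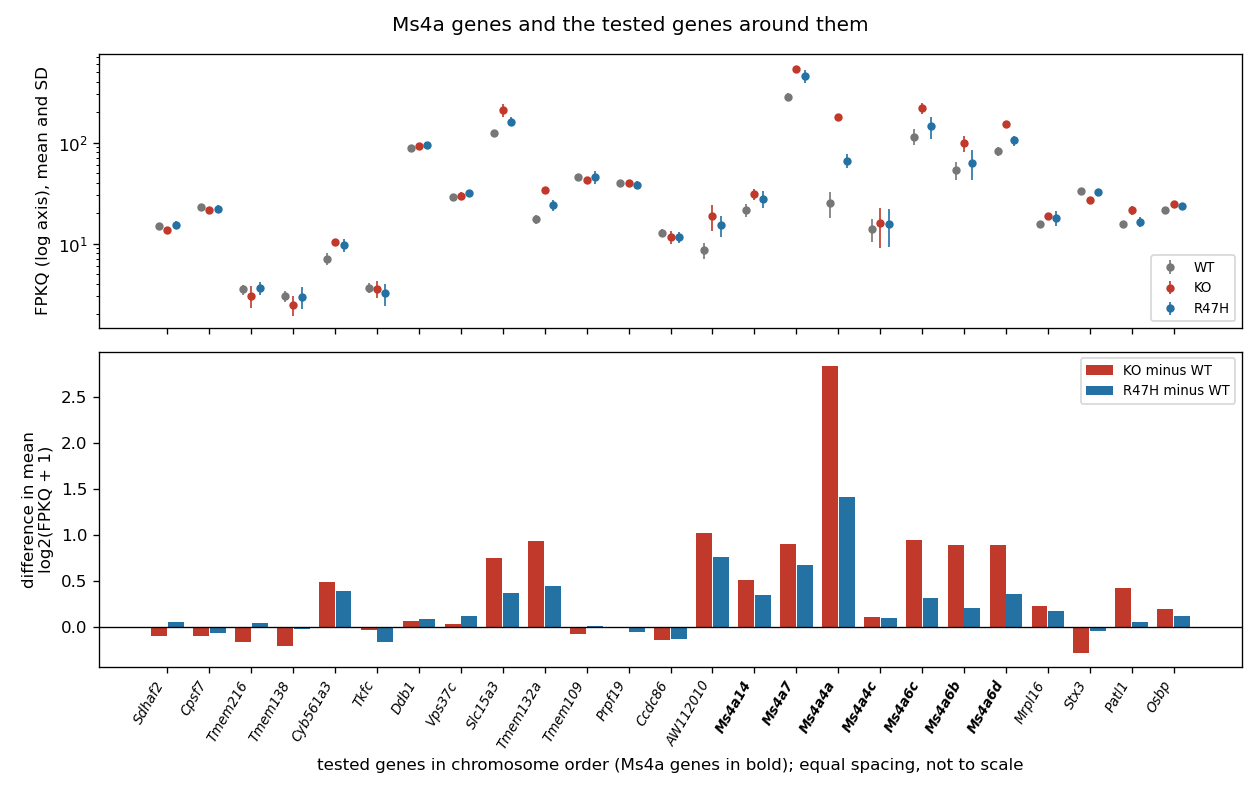
The 25 tested genes of the Ms4a region in chromosome order (Ms4a genes in bold): upper panel, mean level in FPKQ on a log axis with SD bars in WT, KO and R47H; lower panel, difference in mean log2(FPKQ + 1) from WT. Ms4a4a has the tallest bars, Ms4a4c beside it is near 0, and most flanking genes lie near 0 apart from Tmem132a, Slc15a3, Cyb561a3 and Patl1; AW112010, inside the Ms4a span, is at 1.01 and 0.75.

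Of 10 genes listed as partners of Ms4a proteins or of TREM2 or as belonging to their setting, 9 were tested. Vsig4 was below the minimum level for a test. In KO 5 rose and none fell (28.2% and 23.7% over all tested genes), and in R47H 5 rose and 1 fell (13.4% and 7.83%). Of these calls, Adam17 in KO was lost in 18 of the 33 other settings, and in R47H Grn was lost in 8, Tyrobp in 10 and Cd163, the gene that fell, in 16. Clec7a, which codes for dectin-1, went from 187.4 ± 37.1 FPKQ in WT (SD, n = 10) to 339.6 ± 36.8 in KO and 257.6 ± 42.6 in R47H (SD, n = 5 each). The log2 differences were 0.87 (adjusted p 4.02e-06, limma) and 0.47 (adjusted p 0.00925, limma), and the R47H call was lost with equal sums. Syk, the kinase below dectin-1 and TREM2, rose by 0.65 in KO (adjusted p 1.97e-11) and by 0.37 in R47H (adjusted p 1.02e-06). Apoe, a lipid carrier that binds TREM2, rose by 1.84 and 1.06 (adjusted p 3.62e-10 and 1.04e-05). Adam10, a protease that sheds TREM2, rose by 0.32 in KO (adjusted p 2.56e-05). In R47H Adam10 was at 45.5 ± 3.78 FPKQ against 44.9 ± 2.45 in WT. The median of the 9 was 0.21 in KO and 0.18 in R47H. The list, like those below, was chosen with earlier results of these data known, so its counts are a description.

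Of 14 genes of alternative activation and glucocorticoid response, the setting in which human MS4A4A is known to be induced, 12 were tested. Arg1 and Retnla were below the minimum level for a test. In KO 9 rose and 2 fell (28.2% and 23.7% over all tested genes), and in R47H 8 rose and 2 fell (13.4% and 7.83%), with medians of 0.76 and 0.47. This list too was chosen with earlier results of these data known, so nothing is read from these counts. F13a1, a coagulation factor chain made by alternatively activated macrophages, went from 5.27 ± 2.06 FPKQ in WT (SD, n = 10) to 49.1 ± 7.02 in KO and 10.7 ± 1.65 in R47H (SD, n = 5 each; adjusted p 7.86e-12 and 0.000629, limma). Tgm2, a transglutaminase, and Mrc1, the mannose receptor, rose by 1.56 and 0.95 in KO (adjusted p 4.93e-12 and 5.43e-11) and by 0.57 and 0.31 in R47H (adjusted p 9.67e-05 and 0.00135), the last not called with equal sums. Of the 2 genes that fell, Klf4 went down by 0.88 in KO and by 0.81 in R47H (adjusted p 1.7e-06 and 2.94e-05, limma). The other, Fkbp5, a glucocorticoid-induced immunophilin, fell by 1.06 in KO and by 0.65 in R47H (adjusted p 6.00e-11 and 1.02e-06). Other glucocorticoid-induced genes of the list went the other way: Tsc22d3 rose by 0.46 in KO and 0.44 in R47H (adjusted p 0.00723 and 0.0225), calls lost with WT Rep1 to Rep5 as controls, and Per1 rose by 0.57 in KO (adjusted p 2.57e-07) and was at 0.11 in R47H, which did not pass. In R47H 7 of the 12 were lower and 1 was higher than in KO (18.0% and 22.8% over all tested genes), and Tgm2, F13a1 and Mrc1 were among those lower.

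All 12 genes of an interferon response list, chosen with earlier results known, were tested. In KO none rose and 3 fell (Oasl2, Usp18 and Isg15, by 0.68, 0.66 and 0.54, adjusted p 0.00227, 0.00366 and 0.0338, limma). The 3 are 25.0% of the list, near the 23.7% of all tested genes called lower in KO. The Isg15 call was lost in 8 settings, among them without KO Rep3, and the Usp18 call with WT Rep6 to Rep10 as controls. In R47H none passed in either direction against WT. Against KO 3 were higher in R47H, 25.0% of the list, near the 22.8% of all tested genes. The medians were -0.23 in KO and 0.04 in R47H. The list's mean log2 level differed widely between libraries of 1 genotype, from 4.99 to 6.16 in KO, 5.31 to 6.50 in R47H and 5.33 to 6.29 in WT.

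The members were then compared within genotype, a view that the choice of members did not use, by the deviation of each library's log2 value from the mean of its own set (WT Rep1 to Rep5, WT Rep6 to Rep10, KO, R47H). These relations were chosen after the values were seen. They number 42, each with a permutation test of libraries within sets and a Benjamini-Hochberg adjustment over all of them. Neither the test nor the adjustment covers that choice, so the p-values describe the relations chosen. Ms4a6b and Ms4a6c deviated together (r = 0.964, n = 20, adjusted permutation p 0.00014, Spearman rho 0.935, adjusted p 0.00021), as did Ms4a4c with Ms4a6b (r = 0.887, adjusted p 0.000252, rho 0.908, adjusted p 0.00014) and with Ms4a6c (r = 0.855, adjusted p 0.00014, rho 0.934, adjusted p 0.00014). An adjusted p of 0.00014 rests on 1e-05, the smallest p these permutations can give. Without the 2 libraries farthest from the middle the 3 values were 0.927, 0.887 and 0.872. Ms4a6b and Ms4a6c correlated at 0.988 within R47H, 0.977 within KO, 0.893 within WT Rep6 to Rep10 and 0.582 within WT Rep1 to Rep5. For Ms4a4c with Ms4a6b the 4 values were 0.988, 0.955, 0.940 and 0.291 in the same order, and for Ms4a4c with Ms4a6c 0.952, 0.924, 0.830 and 0.727. Of all 21 pairs of members, 8 passed by Pearson's r. The share among pairs of other tested genes was not computed, so the count is not read as particular to the family. Ms4a6d passed by r and rho with Ms4a6b (r = 0.741, adjusted permutation p 0.00468, rho 0.737, adjusted p 0.00582). It did so with Ms4a6c too (r = 0.706, adjusted permutation p 0.0084, rho 0.651, adjusted p 0.0238). Without the 2 farthest libraries these r values were 0.577 and 0.514. Ms4a4c with Ms4a6d, and Ms4a14 with Ms4a6b and Ms4a6d, passed by r only.

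The interferon list deviated with Ms4a4c, Ms4a6b and Ms4a6c as well. Its mean correlated with Ms4a4c at r = 0.945 (adjusted permutation p 0.00014, rho 0.929, adjusted p 0.00014), with Ms4a6b at 0.900 (0.00021, rho 0.905, adjusted p 0.000336) and with Ms4a6c at 0.833 (0.00042, rho 0.851, adjusted p 0.00203). Leaving out the 2 farthest libraries, KO Rep3 and R47H Rep3, gave 0.900, 0.888 and 0.797. These 2 libraries were the lowest of their groups for the interferon list, 0.70 and 0.68 below their set means on the log2 scale. They were also the lowest of their groups for Ms4a4c, at 0.93 and 0.79 below, and for Ms4a6b, at 0.30 and 0.77 below.

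For Ms4a6d and Ms4a14, Pearson's r with the interferon list was 0.610 and 0.612 (adjusted permutation p 0.0349 for both). Spearman's rho was 0.559 and 0.465 and did not pass (adjusted permutation p 0.0793 and 0.153). Without KO Rep3 and R47H Rep3 r fell to 0.391 and 0.286. Within WT Rep1 to Rep5, WT Rep6 to Rep10, KO and R47H r was 0.687, 0.606, 0.512 and 0.807 for Ms4a6d. For Ms4a14 the values in the same order were 0.229, -0.102, 0.893 and 0.798. Ms4a4a and Ms4a7 did not pass, at r = 0.018 and -0.310 (adjusted permutation p 0.998 and 0.523). No member passed with the alternative activation list (largest r 0.637, adjusted permutation p 0.0505, for Ms4a6c) or with the partner list.

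**Figure D4:**
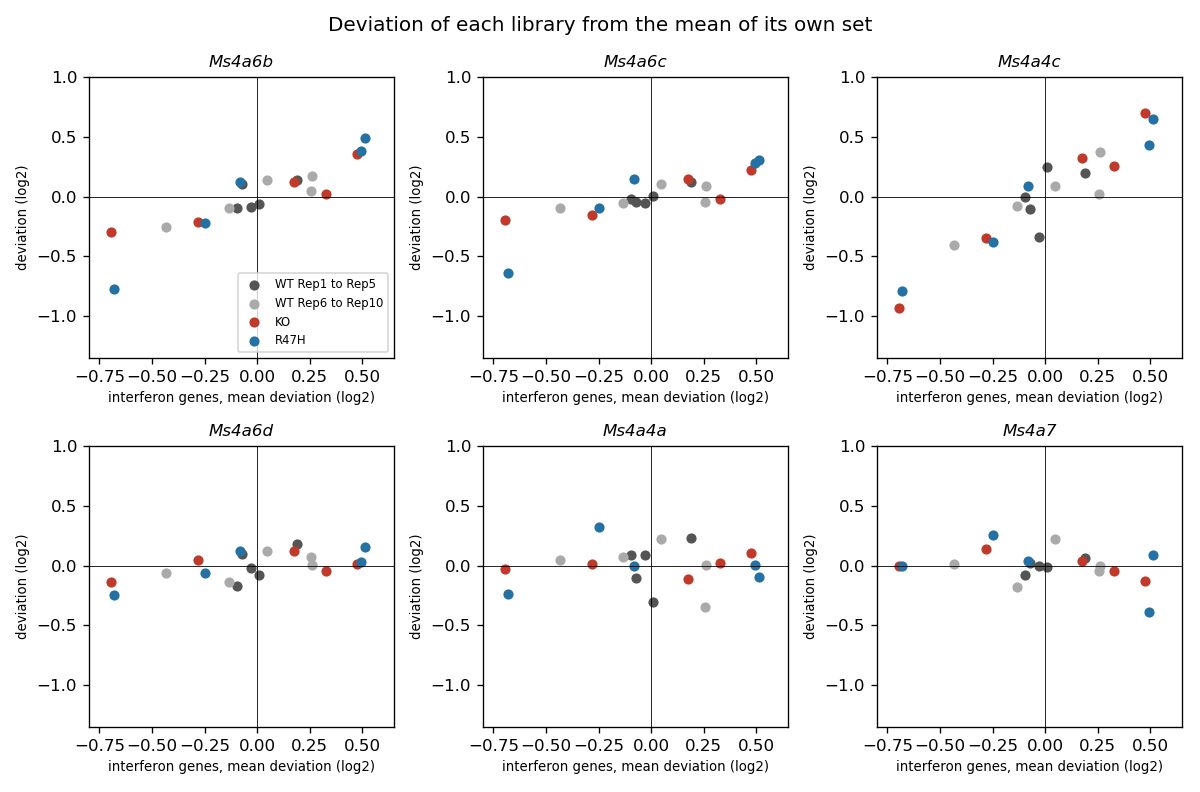
Deviation of 6 Ms4a genes (vertical, log2) against the mean deviation of 12 interferon response genes (horizontal, log2), each library measured from the mean of its own set; colours are the 4 sets and axes are the same in all panels. Points of Ms4a4c, Ms4a6b and Ms4a6c rise from lower left to upper right (r = 0.945, 0.900 and 0.833), and those of Ms4a4a and Ms4a7 do not.

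Genes outside the family whose levels over the 20 libraries were most like each member are given as a description; r spans genotypes as well as libraries here. Ms4a4a was most like Slc9a9, an endosomal sodium-proton exchanger (r = 0.987), Selenop, selenoprotein P (0.986), and Slc43a2, an amino acid transporter (0.983). Slc9a9 stood at 30.2 FPKQ in WT, 90.9 in KO and 48.0 in R47H. After removal of the 3 group means Ms4a4a was most like Il4ra, the interleukin 4 receptor alpha chain (0.953), Ap1b1 (0.905) and Sh3bp5 (0.887). These deviations still hold the gap between the wild-type sets, and with the means of the 4 sets removed the 3 values were 0.854, 0.684 and 0.574. Ms4a4c was most like the interferon-induced genes Ifit2 (0.946) and Ifi209 (0.942) and like Ly6a (0.936). Ms4a6b and Ms4a6c shared Gbp7, a guanylate-binding protein gene (0.960 and 0.966), and Fam46a (0.953 and 0.982) as close companions, with Gbp3 (0.950) for the first and Serinc3 (0.960) for the second. Ms4a6d was most like Aoah, a lipopolysaccharide-degrading hydrolase (0.973), Lpcat2 (0.972) and Nod1 (0.967). Ms4a7 was most like Slc26a11, Psap, the saposin precursor, and Sat1 (0.953, 0.952 and 0.950), and Ms4a14 like Baz2a, Pot1b and Il16 (0.925, 0.910 and 0.908). After removal of the group means, Ms4a6b and Ms4a6c were both most like Morc3 (0.967 and 0.962, or 0.956 and 0.959 with the 4 set means removed).

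Markers of other cells differed in level. The 10 T and NK cell markers summed to 0.597 to 1.30 FPKQ in WT, 0.472 to 0.990 in KO and 0.583 to 0.698 in R47H, with Cd3e and Cd3g at 0 in all KO and R47H libraries. The 6 basophil and mast cell markers summed to at most 1.27 in any group. The 7 B cell markers summed to 75.3 to 93.7 in WT, 78.7 to 98.9 in KO and 72.0 to 94.3 in R47H, mostly Ighm. Among them Cd22 rose, from 5.38 ± 0.922 FPKQ in WT to 18.8 ± 1.43 in KO and 8.595 ± 0.604 in R47H (log2 differences 1.64 and 0.60, adjusted p 2.28e-12 and 4.99e-05, limma), while Ighm and Cd79b did not pass in either. The 10 neutrophil and progenitor markers summed to 41.4 to 77.5, 43.0 to 77.5 and 46.3 to 110.1, and the 7 monocyte markers to 33.3 to 49.2, 25.7 to 42.6 and 24.6 to 37.96. Among the neutrophil and progenitor markers Ngp rose in R47H, from 5.22 ± 1.22 FPKQ in WT to 7.97 ± 1.49 (log2 difference 0.54, adjusted p 0.00469, limma). Ltf, S100a8 and S100a9 did not pass in R47H, and none of the tested genes of this list passed in KO. The 8 dendritic cell markers summed to 1.72 to 2.95 in WT and 2.99 to 4.47 in KO, which did not overlap, and to 1.63 to 3.40 in R47H. Of the 4 tested monocyte genes, Ccr2 fell, from 34.0 ± 5.60 FPKQ in WT to 19.5 ± 4.80 in KO and 20.99 ± 4.28 in R47H (adjusted p 6.81e-05 and 0.0012, limma). Hp, Plac8 and Ly6c2 were at 0.28, 0.25 and 0.25 in KO and did not pass, and the median of the 4 was 0.25 in KO and 0.03 in R47H. The 10 macrophage markers summed to 23160 to 26580 in WT, 32450 to 35220 in KO and 26410 to 29500 in R47H, sums that Lyz2 alone mostly sets. Of the 9 tested, 4 rose and 3 fell in KO (28.2% and 23.7% over all tested genes), and 4 rose and 3 fell in R47H (13.4% and 7.83%). Mertk, Lyz2, Csf1r and Adgre1 rose by 1.84, 0.50, 0.48 and 0.23 in KO (adjusted p 3.51e-11, 3.86e-07, 1.98e-07 and 0.00862, limma). Cd14, Itgam and Fcgr1 fell by 1.26, 0.55 and 0.43 (adjusted p 2.11e-10, 1.03e-05 and 0.0102, limma), the last not called with WT Rep6 to Rep10 as controls. The Lyz2 and Adgre1 calls were each lost in 2 of the 33 other settings. In R47H the calls of Lyz2, of Csf1r and of Cd163, which fell there, were lost in 11, 5 and 16. The part of B cell, neutrophil and progenitor, dendritic, monocyte and macrophage markers in the Ms4a differences was not tested.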

How the data were processed

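RNA of macrophage cultures was poly-A selected and made into strand-specific libraries read as pairs of 75 bases, per the labels' protocols. The authors deposited 1 table per library whose values, called FPKQ, are handled as FPKM. For the definition of FPKQ and the use of strand in counting: not given in the sources used here. RSEM and the genome GRCm38 are named per the submitters' processing notes. RSEM can divide fragments between similar genes, which touches Ms4a4b with Ms4a4c and the 3 Ms4a6 genes. Ms4a6c and Ms4a6b each overlap a gene on the opposite strand (BE692007 and Gm19261).

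The members and gene lists were chosen with earlier results of these data known. Of 51456 genes, the 10843 that averaged 1 FPKQ or more were kept, and log2(FPKQ + 1) was fitted with limma 3.58.1 in R 4.3.3 (eBayes with trend) in 1 model of the 3 groups, with Benjamini-Hochberg adjustment over all tested genes and a threshold of 0.05. Each gene's adjusted p is from that limma fit. The pseudocount makes fold changes of low genes too small. Depth was read from genes that have 1 transcript, of 600 bases or longer: 85.9% to 90.0% of low values were whole fragments within 0.1, too few for a count test. Libraries of 1 group correlated at 0.980 to 0.995, and no pair of libraries was identical. Protocols speak of 5 animals per genotype; p-values measure the spread between these libraries.

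Named besides the members were Trem2, called genes within 500 kb and the 3 genes most like each member. Up to 4 tested genes per list with the smallest adjusted p in KO were also named. Other Ms4a genes averaging 0.1 FPKQ or more were to be named, but none reached it. The 4 above 0 were named after their values were seen. So were Tmem109, Prpf19, Ccdc86, AW112010, the genes with calls that changed between settings, Vsig4, Arg1, Retnla, Klf4, Per1, Tsc22d3 and further marker genes. Coordinates come from GENCODE M21 (GRCm38), which held 45889 of the symbols. Promoters were aligned with Biopython 1.88 (match 2, mismatch -3, gap opening -5, extension -2). The fit was tested on simulated data. Alternatives covered the wild-type set, pseudocount, filter, scaling, moderation, library weights, groups in the fit, a replicate block and each library left out.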

Additional observations from a re-analysis of the deposited data

Results flagged for a closer look

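Ms4a14 in R47H Rep3 stood at 18.6 FPKQ, apart from the other 4 R47H libraries, of which the nearest was at 29.3. The gap was 0.813 of the range of the group, above Dixon's critical value of 0.71 for 5 libraries. Of 27 groups of values checked in this way 1 stood out, and chance alone marks about 1 in 20.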

How the results depend on the processing

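Of 693 values of member differences under alternatives, 692 moved by less than the spread between libraries and 1 moved by more (Ms4a7 in R47H against KO, -0.43 with quantile normalization). Many of the 693 could not move. Filters, robust moderation and the fit of 2 groups leave a difference as it is, as does leaving out a library outside the contrast. The wild-type set likewise does not enter R47H against KO. The 692 therefore overstate how far the differences were put to the test. None of the called differences reversed, and 16 values of uncalled ones had the opposite sign. With libraries rescaled to equal sums, 2 members were called in R47H instead of 4, and 11 flanking genes were called in KO (5 higher, 6 lower) and 5 in R47H (3 higher, 2 lower) instead of 7 and 3; equal sums lowers the values of libraries with a larger total. Leaving out 1 library at a time gave 3 to 5 members called in R47H, 6 in KO, 3 to 5 flanking genes in R47H (5 without R47H Rep1) and 7 to 8 in KO. Same-numbered libraries (1 to 5) deviated together by r of -0.25 to 0.34, and not all pairs were above 0.1, so the labels' numbers were not taken as pairs; WT Rep6 to Rep10 share no number with a mutant library and were not checked against them. With the replicate number as a block, which also leaves WT Rep6 to Rep10 without weight as controls, so that the differences equal those against WT Rep1 to Rep5, 6 members were called in KO, 3 in R47H and 4 in R47H against KO. Depth limits Ms4a8a, which had at most 6.51 fragments in a library. Ms4a4b had 45.7 to 202.1 fragments and was left out by the minimum of 1 FPKQ. Both are estimates that take the longest annotated transcript as the length of the gene.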
